A study of Homo sapiens with 33 samples.

Results

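The gene models described here come from FANTOM CAT, an atlas of human transcripts, mostly long non-coding RNAs, whose starts were anchored by mapping capped RNA ends. Their identifiers begin with CATG. The count table merged these models with Ensembl genes, whose identifiers begin with ENSG, and held 85160 rows, of which 26190 were CATG rows. A CATG row was taken as a member when none of its exon bases lay on the same strand as an exon base of an Ensembl row and when its counts summed to at least 330 over 33 libraries, a mean of 10 per library. Of 24350 CATG rows without such overlap, 16288 had at least 1 count and 1341 reached the minimum. Of the 1341, 756 had no exon base opposite an Ensembl exon and 585 did, so results are given for both subsets.

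NB4 is an established human acute promyelocytic leukaemia line that carries the PML-RARA fusion and matures towards granulocytes under all-trans retinoic acid (ATRA), a ligand of retinoic acid receptors. NB4 cells were left untreated (0 h) or were given 1 µM ATRA or the solvent DMSO for 4, 12, 24, 72 or 120 h; the medium and drug were renewed on day 3. Each of the 11 groups held 3 biological replicates, numbered 2, 4 and 5. Total RNA was sequenced from both ends with its strand kept, and 18341456 to 33490654 fragments per library were assigned to genes (median 25927472).

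Long non-coding RNAs are transcripts that are processed like mRNA but encode no known protein. They are often short-lived, low in level and restricted to few cell types, and many start beside the promoter or enhancer of a coding gene. In myeloid cells retinoic acid receptors act on enhancers, where such RNAs also start. Models inside the intron of a gene on the same strand share that gene's unspliced RNA, so the counts of such a model and of its unspliced host cannot be told apart. The members were chosen by their total count over all libraries, so a member could pass through the treatment in which it was high. At a mean of 10 counts per library over the 18 libraries without ATRA alone, 206 members would have been left out, and over the 15 ATRA libraries alone, 69 would have been. Both means were at 10 or more in 1066 members, and 1198 members had a count in every library. Counts over members are therefore descriptions.

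The libraries carried the RNA of the labelled line. MPO, the granule peroxidase, had a median of 8061 CPM (counts per 1000000, scaled with edgeR's normalisation factors), the granule protease PRTN3 had 959.8, and KIT was at 0.107 or below. The erythroid gene ALAS2 and the platelet gene PF4 were at 0 in all libraries, and HBB, CD3E, MS4A1, DCN and COL3A1 did not exceed 0.471. The epithelial markers EPCAM (median 11) and KRT18 (9.77) and the B cell gene CD79A (3.02) were measured. Libraries at 0, 4 and 12 h were all sequenced in lane 4. From 24 h on, replicate 2 was in lane 2 and replicates 4 and 5 in lane 3, so lane and time cannot be told apart where untreated cells were compared with DMSO at 24 h or later.

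By position, 585 members (43.6%) had exon bases opposite an Ensembl exon, over a median of 29.1% of their exon length, and 200 had more than 50% of it there. The classes exclude one another, and each member was put in the first that held, in the order given here. Next, 527 members (39.3%) lay inside the span of a same-strand Ensembl row. For 466 of these the same host also enclosed the member in the GENCODE 29 annotation. With members opposite an exon included, 634 lay inside such a row, 515 of them also inside that host in GENCODE 29. A divergent start, within 2 kb of the start of an Ensembl gene on the other strand, was the class of 68 members (5.07%). Another 37 (2.76%) started within 10 kb beyond the end of a gene on their own strand, 30 (2.24%) lay inside a gene of the other strand, and 94 (7.01%) had none of the 5 relations. Outside the span of every Ensembl row on either strand lay 148 members. The 1341 members formed 1272 loci at a distance of 10 kb, and 63 loci held several members.

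Members were short, lowly expressed models. Their median exon length was 4426 bases, against 10932 for the 17461 Ensembl rows that reached the same minimum, and 452 (33.7%) had a single exon, against 14.1%. The median level was 0.755 CPM, or 0.205 CPM per kb of exon. Per kb, 12706 coding Ensembl rows had a median of 2.04, and 1742 lincRNA and antisense rows had 0.231. All members together took 1600630 counts, 0.187% of the table, and the 10 highest took 11.8% of these. Of the class inside a same-strand gene, the level per kb had a median of 7.96% of the host's (quartiles 3.71 and 15.6).

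Start regions are shown for 5 members on which results below turn, where a RefSeq start lay close enough for the sequence table to cover the member's 5′ end. The first 4 share the strand of a RefSeq non-coding gene, and the last reads the window of CYTL1 on the opposite strand, so that the shared start region of the pair is visible. Each is printed 5′ to 3′ on the member's strand from GRCh38.p14 (RefSeq), and capitals mark the bases that belong to the member.
CATG00000042543, chr2:40511672-40511971, plus strand, LOC101929667: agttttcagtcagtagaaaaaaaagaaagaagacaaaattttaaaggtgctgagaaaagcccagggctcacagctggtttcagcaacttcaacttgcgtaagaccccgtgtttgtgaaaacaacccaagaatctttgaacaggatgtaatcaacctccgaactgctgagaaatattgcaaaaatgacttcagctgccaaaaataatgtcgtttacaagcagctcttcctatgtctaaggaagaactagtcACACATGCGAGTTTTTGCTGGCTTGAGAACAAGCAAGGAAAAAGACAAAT
CATG00000063734, chr3:11225869-11226168, minus strand, LOC102723663: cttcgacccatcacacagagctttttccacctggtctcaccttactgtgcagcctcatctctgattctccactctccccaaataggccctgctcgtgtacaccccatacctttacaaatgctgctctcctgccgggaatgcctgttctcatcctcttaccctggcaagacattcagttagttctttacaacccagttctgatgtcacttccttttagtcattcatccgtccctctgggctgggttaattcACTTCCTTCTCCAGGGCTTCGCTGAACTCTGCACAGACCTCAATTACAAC
CATG00000086103, chr6:136783797-136784096, plus strand, MAP3K5-AS2: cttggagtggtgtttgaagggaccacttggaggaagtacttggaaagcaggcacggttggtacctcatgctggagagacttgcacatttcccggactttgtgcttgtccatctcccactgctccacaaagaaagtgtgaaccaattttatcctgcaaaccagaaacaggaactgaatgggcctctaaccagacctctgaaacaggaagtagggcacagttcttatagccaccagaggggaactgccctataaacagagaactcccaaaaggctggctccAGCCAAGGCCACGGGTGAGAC
CATG00000091713, chr7:26101389-26101688, plus strand, LOC105375198: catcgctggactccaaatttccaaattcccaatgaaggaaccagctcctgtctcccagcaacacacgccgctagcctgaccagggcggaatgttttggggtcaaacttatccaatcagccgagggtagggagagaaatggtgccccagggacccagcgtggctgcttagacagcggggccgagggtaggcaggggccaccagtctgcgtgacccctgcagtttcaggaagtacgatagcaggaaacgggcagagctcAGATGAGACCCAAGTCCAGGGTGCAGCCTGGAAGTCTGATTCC
CATG00000067606, chr4:5019459-5019708, plus strand, opposite CYTL1: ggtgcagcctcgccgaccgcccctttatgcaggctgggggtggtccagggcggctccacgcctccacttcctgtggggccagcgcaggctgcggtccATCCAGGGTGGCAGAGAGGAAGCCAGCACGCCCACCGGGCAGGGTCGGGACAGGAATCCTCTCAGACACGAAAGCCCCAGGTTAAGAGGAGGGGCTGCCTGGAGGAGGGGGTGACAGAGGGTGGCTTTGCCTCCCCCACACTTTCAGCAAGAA

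On both strands of these windows 5 motifs were searched: TATAAA (the TATA box), TTCNNNGAA (the palindrome bound by STAT factors), TTGCNNCAA (bound by C/EBP factors), the direct repeat of nuclear receptor half-sites with a spacing of 5, and the interferon-stimulated response motif. None of the letter strings contains another. TATAAA occurred in the window of CATG00000086103, 32 bases before the start of the member, and TTCNNNGAA in that of CATG00000063734, 17 bases after it. No other match was found in these windows. Among 35116 RefSeq windows of 300 bases, 11.5% held TATAAA, 7.66% TTCNNNGAA, 1.98% TTGCNNCAA, 0.729% the direct repeat and 3.57% the interferon motif. The GC content of the 5 windows ran from 39.7% (CATG00000042543) to 66.8% (CATG00000067606). A match is a description of letters and says nothing of binding.

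After ATRA, members were more often higher than lower than in DMSO at every time (edgeR quasi-likelihood test, Benjamini-Hochberg adjusted p below 0.05 over 22971 genes). At 4 h, 122 of 1340 tested members were higher and 105 lower (9.1% and 7.84%), where 12.4% of all genes tested were higher and 12.4% lower. At 12 h, 281 were higher and 51 lower (21% and 3.81%), beside 20% and 18.7% of all genes. At 24 h the counts were 190 and 84 (14.2% and 6.27%; all genes 17.3% and 15.8%). At 72 h they were 423 and 214 (31.6% and 16%; all genes 32% and 32.6%), and at 120 h 385 and 306 (28.7% and 22.8%; all genes 34.9% and 35.6%). So the share of higher members lay near or below that of all genes, and the share of lower members lay below it at each time. The median log2 change over members was 0.03, 0.31, 0.10, 0.27 and 0.07 in order of time. Among Ensembl rows of the same minimum it lay between -0.09 and 0.00. Of the called members, 204, 317, 265, 596 and 611 had no overlap between the 3 ATRA and the 3 DMSO libraries, which is 89.9%, 95.5%, 96.7%, 93.6% and 88.4% of them. Among called Ensembl rows of the same minimum the shares were 93.6%, 94.6%, 97.3%, 96.9% and 96.4%. Without DMSO 4 h replicate 5, 57 members (4.25%) were lower at 4 h.

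**Figure D1:**
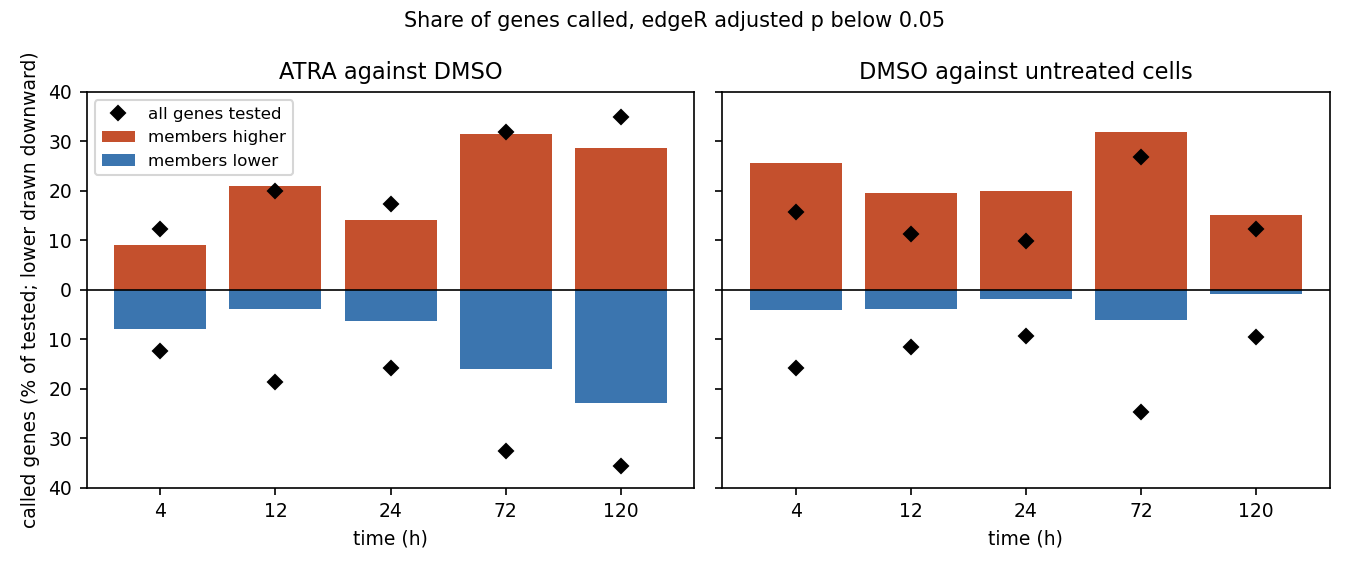
Share of the 1340 tested members called higher (bars up) or lower (bars down) at each time (x axis, hours), in percent of those tested, for ATRA against DMSO (left) and DMSO against untreated cells (right); diamonds give the share of all 22971 genes tested. At 12 h of ATRA 21% of members were higher and 3.81% lower, beside 20% and 18.7% of all genes.

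Members low without ATRA could only rise, so the counts were also taken over the 1066 members with a mean of at least 10 counts in both sets of libraries. There, 71 were higher and 92 lower at 4 h, 189 and 32 at 12 h, 122 and 62 at 24 h, 270 and 180 at 72 h, and 228 and 268 at 120 h. In percent these were 6.66 and 8.63, 17.7 and 3, 11.4 and 5.82, 25.3 and 16.9, and 21.4 and 25.1. All genes tested had 12.4 and 12.4, 20 and 18.7, 17.3 and 15.8, 32 and 32.6, and 34.9 and 35.6. So each share, higher or lower, lay below that of all genes. Within the subset, higher members outnumbered lower ones at 12, 24 and 72 h. At 4 and 120 h lower members outnumbered higher ones. The median log2 change over these 1066 members was -0.01, 0.28, 0.05, 0.15 and -0.07.

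The 2 subsets by opposite-strand exons differed in their counts. Among 756 members with no exon base opposite an Ensembl exon, 58, 109, 77, 235 and 193 were higher at 4, 12, 24, 72 and 120 h of ATRA, and 67, 34, 56, 107 and 180 were lower. Their shares were 7.67%, 14.4%, 10.2%, 31.1% and 25.5% higher, and 8.86%, 4.5%, 7.41%, 14.2% and 23.8% lower. So at 4 h this subset had more lower than higher members. Among 584 tested members with such bases, 64, 172, 113, 188 and 192 were higher, and 38, 17, 28, 107 and 126 lower. These were 11%, 29.5%, 19.3%, 32.2% and 32.9% higher, and 6.51%, 2.91%, 4.79%, 18.3% and 21.6% lower. The shares of all genes tested are those of the paragraph above. For the subset without opposite exons alone, each share of members called remained within 1.5 times the share over all members. The difference between the subsets was not tested.

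Of the 1340 tested members, 387 (28.9%) were called at no time of ATRA and 346 (25.8%) at 1 time only, beside 14.4% and 17.9% of all genes tested. Higher at all 5 times were 66 members (4.93%; all genes 5.03%) and lower at all 5 were 18 (1.34%; all genes 4.21%). Called in both directions at different times were 77 (5.75%; all genes 14.1%). The first call was higher for 122 members at 4 h, 181 at 12 h, 27 at 24 h, 201 at 72 h and 58 at 120 h. It was lower for 105, 26, 31, 103 and 99. Of the 122 members higher at 4 h, 91 were also higher at 120 h, and of the 105 lower at 4 h, 69 were also lower at 120 h. Of all genes tested, 34.9% were higher and 35.6% lower at 120 h. The highest group mean fell in ATRA at 72 h for 284 members and in ATRA at 120 h for 247. The total that chose the members includes these libraries. Matching shares over all genes are not given for first calls, carried calls or highest groups, so these counts are descriptions only.

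Summed over members, the level ran from 1280 to 3112 CPM across libraries. The 94 members with none of the 5 relations summed to 135 ± 3.95 CPM (SD, n = 3) in untreated cells, 134 to 167 in the 5 DMSO groups, and 143 ± 1.88, 202 ± 2.70, 177 ± 3.01, 354 ± 20.8 and 397 ± 18.1 in ATRA at 4, 12, 24, 72 and 120 h. At each time all 3 ATRA libraries lay above all 3 DMSO libraries. Much of the gap at 120 h came from 3 members, picked after their values were seen: CATG00000086126 had a mean of 80.8 CPM in ATRA and no count in DMSO, CATG00000019706 had 86.4 and 23.9, and CATG00000017387 had 30.8 and 0.0253. Without them the sum at 120 h was 199 ± 15.3 in ATRA and 143 ± 6.94 in DMSO (SD, n = 3). Single members of the class moved both ways: at 120 h 36 were higher and 31 lower (38.3% and 33%, beside 34.9% and 35.6% of all genes), with a median log2 change of 0.21. The total that chose the members includes the ATRA libraries. The class inside same-strand genes summed to 412 ± 5.60 in untreated cells, 562 to 596 in the DMSO groups and 537 to 769 in the ATRA groups. At 120 h of ATRA its 3 libraries ran from 472 to 877, and those of DMSO from 469.5 to 668.9, so the groups overlapped.

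**Figure D2:**
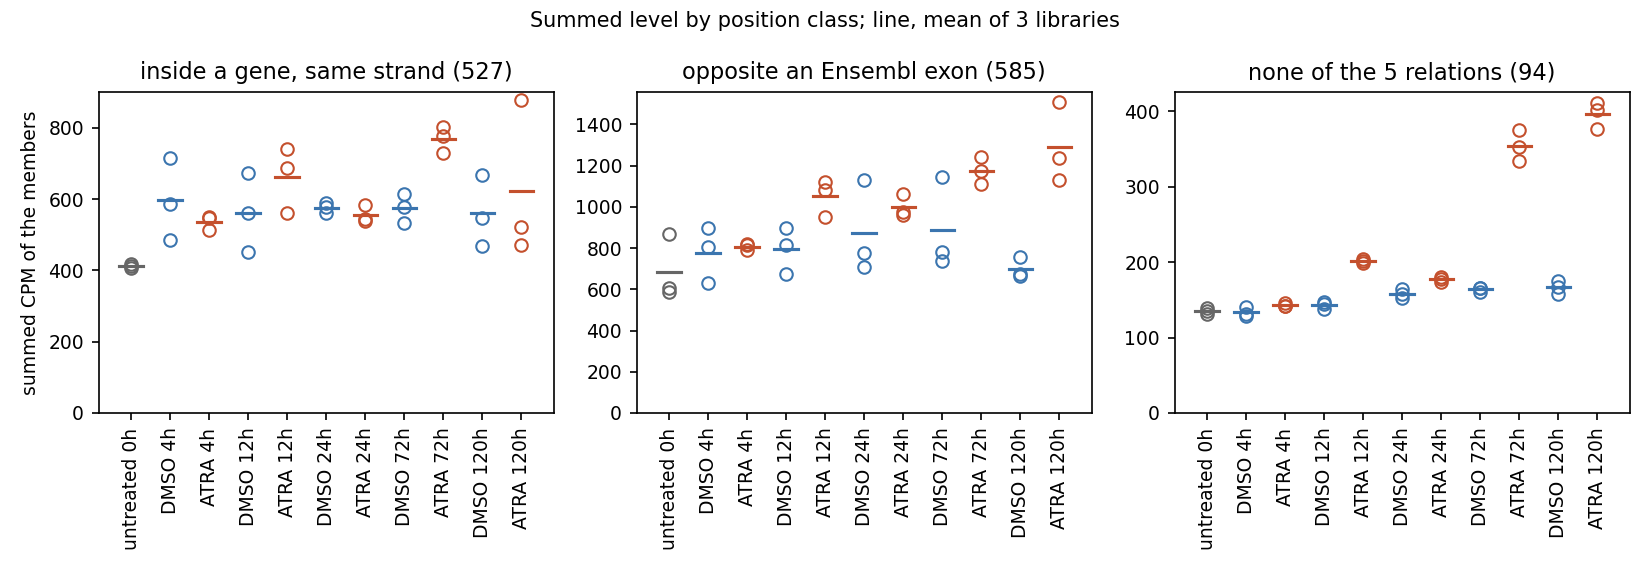
Summed CPM of the members (y axis) in each library, by group (x axis), for 3 position classes; circles are libraries and lines the mean of 3. Members with none of the 5 relations reached 397 CPM at 120 h of ATRA, beside 167 in DMSO.

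Several members that share no base with an Ensembl exon on either strand went from almost no counts to a clear level under ATRA. They passed the count minimum through the ATRA libraries and were picked as the largest called changes without overlap. Their low DMSO level and the gap between groups are therefore part of how they were chosen. The same holds for other members below with almost no counts outside ATRA. CATG00000086126, a model of 5 exons at chr1:185385345-185420805 on the minus strand, 7398 bases from the nearest Ensembl row, had no count in the 3 DMSO libraries at 120 h. The 3 ATRA libraries of that time had 78.4, 82.0 and 82.0 CPM (4948 counts). Against a floor of 3 counts over the DMSO group it was at least 2090-fold higher (adjusted p = 5.9e-35). Its ATRA level built up with time, at 0.0381, 0.0299 and 0.0804 CPM at 4 h, 0.408, 0.300 and 0.394 at 12 h, and 18.6, 22.8 and 22.6 at 72 h. All 3 ATRA libraries lay above all 3 DMSO libraries from 12 h on, and the 4 h change did not pass the test (adjusted p = 0.098).

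CATG00000074926, a single exon at chr5:544289-546467 on the plus strand, rose already at 4 h. Its ATRA libraries had 1.29, 1.32 and 1.25 CPM at 4 h against 0.0429, 0 and 0, which was 109 counts against 1, a ratio of 101 (95% counting interval 17.7 to 4009; adjusted p = 1.3e-11). At 72 h it had 20.2, 23 and 27.1 CPM in ATRA against 0.0912, 0.081 and 0.0394 in DMSO, a log2 change of 8.30 ± 0.30 (SE, adjusted p = 4.1e-27). At 120 h it had 11.6, 12.7 and 17.7, at least 365-fold above DMSO, where no count was seen. Every DMSO group had 5 counts or fewer in all.

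Other such members responded late. CATG00000017387, at chr13:67339312-67348264 on the minus strand, had no count in ATRA at 12 or 24 h. It had 13.3, 13.6 and 24.6 CPM at 72 h and 26, 34.5 and 32 at 120 h, against 0.0413, 0 and 0.0346 in DMSO at 120 h (1903 counts against 2, ratio 1206, 95% counting interval 333 to 9962; adjusted p = 1.2e-14). CATG00000015701 at chr13:90287402-90301924 had no count in any group before 72 h and 1.76, 1.80 and 3.48 CPM in ATRA then, at least 57.1-fold above DMSO (adjusted p = 1.1e-10). CATG00000080380 at chr5:85541739-85647820 had 2.28, 1.91 and 4.53 CPM at 72 h, at least 70.6-fold above DMSO (adjusted p = 2.4e-08). By DESeq2 its 72 h change did not pass (adjusted p = 0.27). Each of these 3 members had at most 2 counts in any library without ATRA.

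CATG00000001121, a model of 9 exons at chr10:124257538-124354217 on the minus strand, had no count in untreated cells or in DMSO but for 1 at 72 h. ATRA libraries had 0.0762, 0.209 and 0.241 CPM at 4 h (at least 4.61-fold higher; adjusted p = 0.00059) and 7.31, 6.91 and 9.83 at 120 h (at least 208-fold; adjusted p = 4.2e-20). CATG00000109926 at chr9:129774552-129777586 had 0.770, 0.811 and 0.789 CPM at 12 h of ATRA and none in DMSO, at least 22.6-fold higher (adjusted p = 1.3e-09). CATG00000081414 lies 9450 bases beyond the end of HBEGF, the gene of a growth factor of the EGF family, on its strand at chr5:140316464-140321926. It had 2.70, 2.68 and 3.28 CPM at 120 h of ATRA and no count in DMSO, at least 74.8-fold higher (adjusted p = 9.3e-14). HBEGF was higher by 2.80 ± 0.08 (log2) at that time, but at 12 and 24 h it was not called while the member was.

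**Figure D3:**
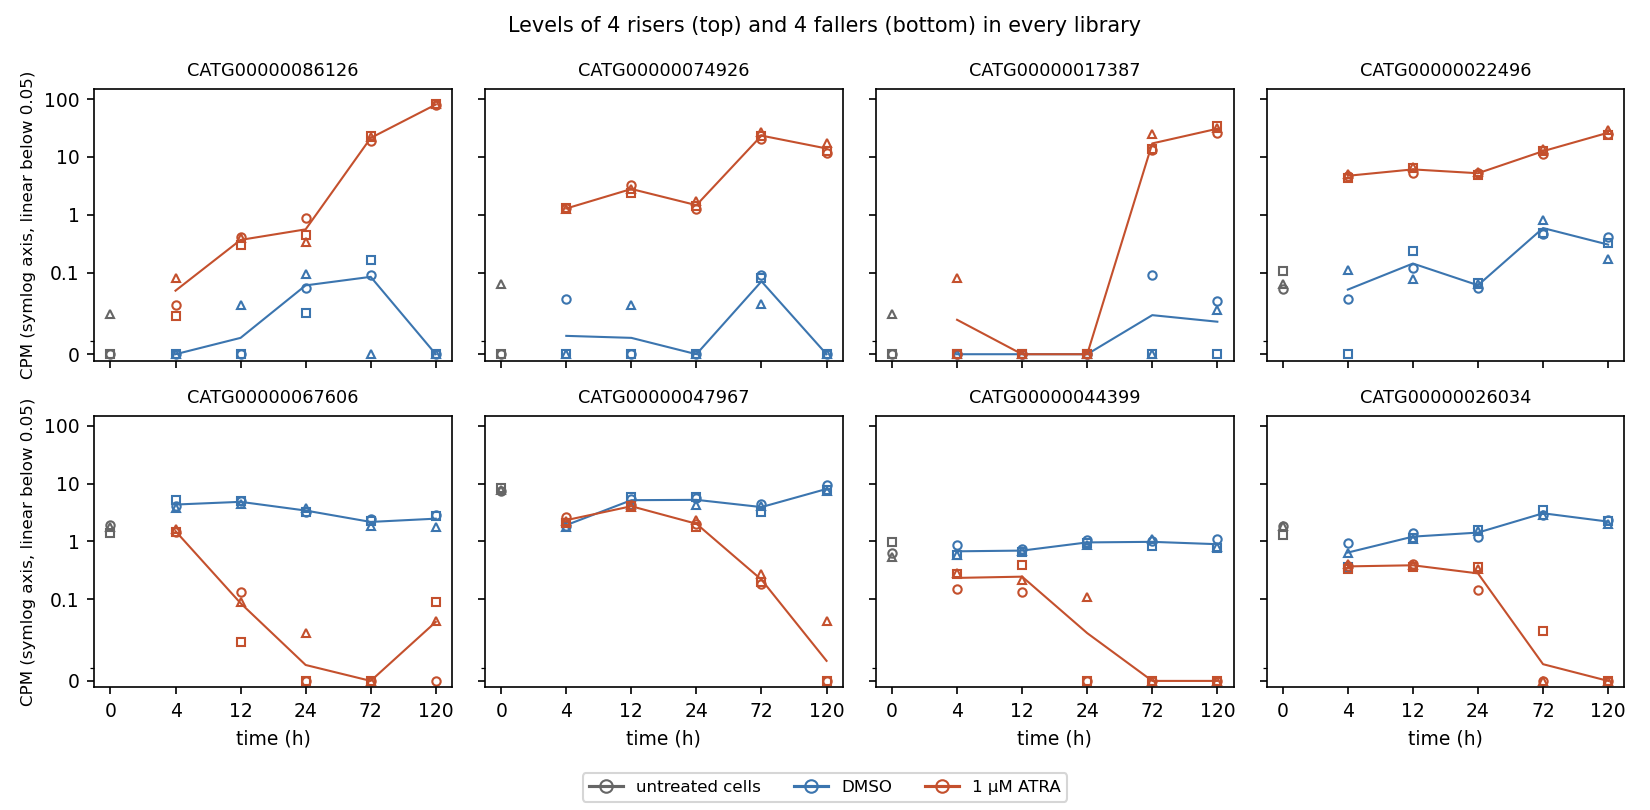
CPM of 4 members that rose (top) and 4 that fell (bottom) in every library, against time in hours (equally spaced; grey untreated, blue DMSO, red ATRA); the y axis is logarithmic above 0.05 and linear below it, markers are replicates and lines join group means. CATG00000086126 stands at 78.4 to 82.0 CPM in ATRA at 120 h with no count in DMSO, and CATG00000044399 has no count in ATRA at 72 and 120 h.

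The fallers named here ended at or near 0. They were picked as the largest called falls without overlap, and the total that chose them includes the libraries without ATRA. Their low ATRA level and the gap between groups are therefore part of how they were chosen. The same holds for members below that fell to almost no counts in ATRA. CATG00000044399, 3 exons at chr2:120577054-120582088 on the plus strand, had 1.00, 0.851 and 1.10 CPM in DMSO at 72 h and no count in ATRA, at least 23.9-fold lower (adjusted p = 2.1e-10). At 24 h it had 0, 0 and 0.112 CPM in ATRA against 1.07, 0.939 and 0.880. CATG00000055285, at chr20:56796724-56827481 on the minus strand, had 3.24, 3.65 and 2.87 CPM in DMSO at 72 h and 0, 0.039 and 0 in ATRA, 234 counts against 1 (ratio 236, 95% counting interval 42.0 to 9375; adjusted p = 9.7e-16). In DMSO this member was itself above untreated cells at each time, by 2.60 ± 0.32 (log2) at 72 h. Both members were lower in ATRA at all 5 times.

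CATG00000026034, a single exon at chr15:96490797-96491383 on the minus strand, had 0.408, 0.361 and 0.394 CPM at 12 h of ATRA and no count at 120 h. DMSO had 2.32, 2.30 and 2.01 at 120 h, at least 44.7-fold more (adjusted p = 1.2e-15). CATG00000006749, 11 exons at chr1:87203067-87293741 on the plus strand, overlaps AC099062.1, a gene of GENCODE 29 with no row in the table. It had 2.40, 2.14 and 2.80 CPM in DMSO at 120 h and no count in ATRA, at least 50.2-fold less (adjusted p = 2.2e-14).

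CATG00000047967 lies on the other strand inside KAZN, which encodes a protein of cell junctions, at chr1:14754482-14777705. It had 7.33, 8.36 and 7.76 CPM in untreated cells. DMSO at 4 h had 1.84, 2.12 and 1.79, a log2 change of -2.02 ± 0.16 from untreated (SE, adjusted p = 6.9e-14), and by 120 h DMSO had 9.30, 7.68 and 7.33. In ATRA it had 0.186, 0.195 and 0.274 at 72 h and 0, 0 and 0.0468 at 120 h (624 counts in DMSO against 1, ratio 492, 95% counting interval 88.1 to 19483; adjusted p = 2.2e-25). KAZN, the sense gene, changed by -4.32 ± 0.27 at 120 h.

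A few members changed direction with time. CATG00000005247, a model of 15 exons at chr11:35007420-35103548 whose span meets that of PDHX, had 0.0762, 0.0598 and 0.161 CPM in ATRA at 4 h against 0.514, 0.403 and 0.548 in DMSO (log2 change -2.30 ± 0.48, adjusted p = 0.00021). At 72 h it had 3.25, 3.59 and 2.5 against 0.274, 0.284 and 0.590 (2.99 ± 0.29, adjusted p = 1.6e-12). The groups did not overlap at either time, and the change from 24 to 72 h of 4.16 ± 0.53 passed its own test (adjusted p = 4.9e-09). Under ATRA, PDHX, a subunit gene of pyruvate dehydrogenase, changed most at 12 h, by -0.40 ± 0.08 (log2).

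Members inside a same-strand gene moved with that gene under ATRA. In this class, 465 tested pairs of member and host are also nested in GENCODE 29. Their log2 changes had a Pearson correlation of 0.68, 0.81, 0.82, 0.85 and 0.84 at 4, 12, 24, 72 and 120 h. Pairs are not independent replicates, and both values of a pair come from the same libraries. At 120 h, 198 of these members were called. The host was called the same way for 182, the other way for 10 and not called for 6. Most Ensembl rows of the same minimum were called then, 36.4% higher and 41.4% lower. In DMSO against untreated cells the correlation lay between 0.19 and 0.36. At 72 h of DMSO, 137 members were called, with the host the same way for 46, the other way for 38 and not called for 53. Of Ensembl rows of the same minimum, 28.1% were higher and 31% lower in that comparison.

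CATG00000005189 lies in WT1, the gene of a transcription factor of immature blood cells, at chr11:32405566-32408513. It had 1.20, 0.986 and 1.73 CPM in DMSO at 120 h and no count in ATRA, at least 27.1-fold lower (adjusted p = 4.9e-10). WT1 fell from 92.7, 93.5 and 88.5 to 0.731, 0.910 and 0.936 CPM (-6.72 ± 0.11). CATG00000037768 lies in BCL2, which encodes an inhibitor of apoptosis, and had 1.32, 0.657 and 1.56 CPM in DMSO and 0, 0 and 0.140 in ATRA at 120 h (93 counts against 3, ratio 24.5, 95% counting interval 8.12 to 121; adjusted p = 6.6e-08). BCL2 fell by 5.28 on the log2 scale. In both pairs the ATRA and DMSO libraries did not overlap.

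CATG00000007131 lies in SMIM35 at chr11:118007972-118012314. It had 0.634, 0.901 and 1.03 CPM at 12 h of ATRA and no count in DMSO, at least 25.2-fold higher (adjusted p = 2e-08), and 5.53, 6.44 and 5.16 at 72 h; SMIM35 was higher by 7.30 ± 0.26 (log2) at 12 h. CATG00000095531 in JAZF1, the gene of a zinc finger protein, was lower at 4 h (0.190, 0.0299 and 0.362 CPM against 0.986, 0.513 and 0.949; log2 change -2.14 ± 0.47, adjusted p = 0.00037) and was called at no later time. CATG00000100848 in PVT1, a long non-coding RNA gene, was lower at 4 h by 2.14 ± 0.38 on the log2 scale (0.114, 0.329 and 0.241 CPM against 0.943, 0.806 and 1.39; adjusted p = 1.6e-05). At 12 h it was not called, at 0.19 ± 0.30.

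Some members and hosts moved apart; these examples were chosen after their values were seen. CATG00000056798, at chr21:34958942-35024077 in RUNX1, the gene of a blood cell transcription factor, had 1.97, 1.18 and 3.09 CPM in ATRA at 120 h against 7.90, 5.38 and 12.3 (log2 change -2.05 ± 0.39, adjusted p = 6e-05). RUNX1 was higher by 0.59 ± 0.10. CATG00000115509 in SRGN, which encodes the granule proteoglycan serglycin, had 2.53, 2.5 and 3.18 CPM against 0.910, 0.821 and 1.25 (1.45 ± 0.24, adjusted p = 6.4e-07), while SRGN changed by -0.96 ± 0.08. In these 2 pairs the groups of the member did not overlap.

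Members opposite an Ensembl exon moved with the opposite gene in part. Across 494 pairs the Pearson correlation of the log2 changes was 0.54, 0.52, 0.40, 0.58 and 0.55 at 4, 12, 24, 72 and 120 h. At 120 h, 277 members were called, with the opposite gene called the same way for 189, the other way for 52 and not called for 36. Of all Ensembl rows of the same minimum, 36.4% were higher and 41.4% lower at that time. Their level per kb had a median of 11.8% of the opposite gene's; for 142 of 569 it exceeded 100% and for 60 it was under 1%. In libraries that keep strand a small share of fragments can carry the wrong strand, and its part in the result was not tested.

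**Figure D4:**
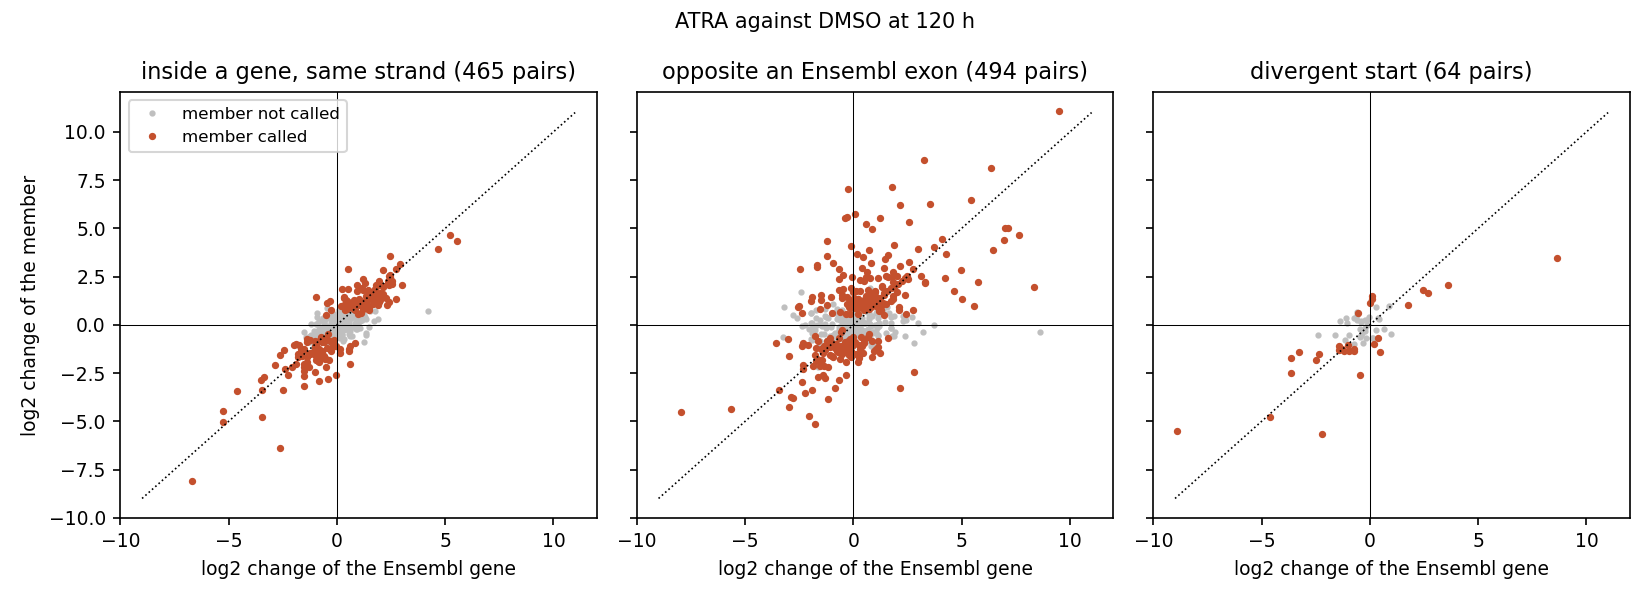
Fitted log2 change of the member (y axis) against that of its paired Ensembl gene (x axis), ATRA against DMSO at 120 h; each point is 1 pair, orange where the member was called and grey where it was not, and the dotted line marks equal change. Pearson correlations were 0.84 for 465 members inside a gene, 0.55 for 494 opposite an exon and 0.79 for 64 with a divergent start.

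CATG00000022496, a single exon at chr1:12615866-12623833 on the plus strand, lies opposite DHRS3, whose enzyme reduces retinal and so lowers retinoic acid. It had 4.72, 4.40 and 5.07 CPM at 4 h of ATRA against 0.0429, 0 and 0.110 in DMSO (log2 change 6.40 ± 0.33, adjusted p = 3.6e-21). DHRS3 had 71.7, 70.3 and 66.8 CPM against 1.29, 1.5 and 2.34 (5.33 ± 0.12). The member reached 24.7, 24.3 and 29.9 CPM at 120 h, and it was higher at all 5 times. In DMSO it was above untreated cells at 72 and 120 h, by 2.89 ± 0.48 and 1.90 ± 0.56, as was DHRS3, by 2.59 ± 0.13 and 1.48 ± 0.15.

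CATG00000042543, 7 exons at chr2:40511922-40546019, lies opposite SLC8A1, the gene of a sodium and calcium exchanger, with 0.432% of its exon length under the exons of that gene; its start region is the first of those printed above. It had 3.81, 3.36 and 5.94 CPM at 72 h of ATRA and 33.4, 32.3 and 47.8 at 120 h, against 0, 0.0411 and 0 in DMSO at 120 h (2327 counts against 1, ratio 2948, 95% counting interval 529 to 116507; adjusted p = 2.8e-22). SLC8A1 had 2.98, 2.77 and 4.54 CPM in ATRA at 120 h and no count in DMSO, so the member stood above its opposite gene. CATG00000033724, 6 exons at chr1:17106416-17117456, lies inside PADI2, which encodes a peptidylarginine deiminase of granulocytes, on the other strand and under none of its exons. It had 2.40, 1.89 and 2.45 CPM at 4 h of ATRA against 0.0429, 0 and 0.183 (4.77 ± 0.39, adjusted p = 5.3e-14) and 21.4, 23.2 and 23.6 at 120 h. PADI2 was higher by 2.46 ± 0.12 at 4 h.

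CATG00000079334, 4 exons at chr1:159803138-159826564, lies opposite FCRL6 over 2.94% of its exon length and starts 186 bases from SLAMF8, the gene of a receptor of myeloid cells. It had 2.65, 2.58 and 3.21 CPM at 72 h of ATRA and no count in DMSO, at least 67.7-fold higher (adjusted p = 6.5e-14). At 120 h it had 2.53, 3.32 and 2.76 against 0, 0.0411 and 0, and the groups overlapped at neither time. SLAMF8 was higher by 7.83 ± 0.30 (log2) at 72 h.

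CATG00000060206 opposite TKT, the gene of transketolase, went against its partner. It had 0.136, 0.180 and 0.121 CPM at 12 h of ATRA against 0.632, 0.530 and 0.840 (-2.13 ± 0.44, adjusted p = 1e-04), while TKT was higher by 0.93 ± 0.07. Both changes passed the test at 4, 12, 24 and 72 h. CATG00000115687 opposite KCNMA1, a potassium channel gene, had 3.24, 1.82 and 2.40 CPM in DMSO at 72 h against 0, 0.039 and 0.0391 in ATRA (177 counts against 2, ratio 89.4, 95% counting interval 24.4 to 744; adjusted p = 1.4e-15). KCNMA1 changed by -1.52 ± 0.34 then.

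Among pairs that moved apart at 120 h, 3 more were picked after their values were seen. CATG00000040225 opposite HNRNPM, the gene of a splicing factor, had 15.2, 13.7 and 14 CPM in ATRA and 0.289, 0.246 and 0.380 in DMSO (5.51 ± 0.24, adjusted p = 6.8e-26), and HNRNPM changed by -0.39 ± 0.06. The member starts 402 bases beyond the end of PRAM1 on its own strand, and PRAM1 was higher by 5.06 ± 0.10; reads that run on from PRAM1 cannot be told apart from the member. CATG00000038825, all of whose exon length is opposite LSM4, had 4.44, 5.19 and 5.29 CPM against 0.207, 0.246 and 0.277 (4.32 ± 0.34, adjusted p = 7.2e-16), with LSM4 at -1.20 ± 0.08. CATG00000029361 opposite CETP had 5.79, 6.46 and 9.88 against 1.12, 0.821 and 1.00 (2.91 ± 0.21, adjusted p = 2.7e-17), with CETP at -2.48 ± 0.75. CETP itself was near the floor, at a mean of 0.05 CPM in ATRA and 0.296 in DMSO. The span of CATG00000029361 also meets that of NLRC5. The 3 members were apart from DMSO in every library.

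The divergent class had 64 pairs with a tested partner. The correlation of their log2 changes was 0.57, 0.61, 0.84, 0.77 and 0.79 over the 5 times. At 120 h 22 of 29 called members had a partner called the same way, beside 36.4% of Ensembl rows higher and 41.4% lower. CATG00000067606, 4 exons at chr4:5019556-5038860, starts 84 bases from CYTL1, which encodes a secreted protein first found in CD34+ blood precursors. The start region of both is the last of those printed above. On its own strand the span of this member meets that of STK32B, a coding gene of RefSeq. The part of STK32B RNA in its counts was not tested. This member had 4.03, 5.28 and 3.76 CPM in DMSO at 4 h and 1.45, 1.44 and 1.65 in ATRA (-1.53 ± 0.21, adjusted p = 6.8e-08). At 12 h the values were 4.98, 5.07 and 4.51 against 0.136, 0.030 and 0.091 (-5.85 ± 0.33, adjusted p = 1e-19), and at 72 h ATRA had no count, at least 52.5-fold less. CYTL1 changed by -0.95 ± 0.08, -2.71 ± 0.09 and -8.26 ± 0.18 at these times.

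DMSO alone was also compared with untreated cells. In these comparisons solvent, time in culture and, from 24 h on, lane cannot be told apart. At 4 h, 345 members were higher and 55 lower (25.7% and 4.1%), beside 15.7% and 15.7% of all genes tested. At 12 h the counts were 263 and 51 (19.6% and 3.81%; all genes 11.2% and 11.5%), and at 24 h 268 and 25 (20% and 1.87%; all genes 9.92% and 9.22%). At 72 h they were 427 and 82 (31.9% and 6.12%; all genes 26.8% and 24.6%), and at 120 h 203 and 10 (15.1% and 0.746%; all genes 12.3% and 9.46%). So higher members outnumbered lower ones at all 5 times, and the share higher was above that of all genes. The 5 comparisons share the same 3 untreated libraries. The median log2 change over members was 0.46, 0.35, 0.43, 0.48 and 0.37, and over Ensembl rows of the same minimum it was between -0.03 and 0.00. Mitochondrial genes took 1.83% ± 0.37 (SD, n = 3) of the counts in untreated cells and between 1.20% and 1.85% in the DMSO groups. With mitochondrial genes left out, each of the shares of members called stayed within 1.5 times its value.

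Single libraries moved some of these counts. Without DMSO 4 h replicate 5, 222 members (16.6%) were higher at 4 h. Without DMSO 120 h replicate 5, 122 (9.1%) were higher and 6 (0.447%) lower at 120 h. Without untreated replicate 5, 31 (2.31%), 15 (1.12%) and 5 (0.373%) were lower at 12, 24 and 120 h. Without untreated replicate 4, 6 (0.447%) were lower at 120 h, and without DMSO 12 h replicate 4, 28 (2.09%) were lower at 12 h. Higher members outnumbered lower ones in each of these fits. Members inside same-strand genes summed to 412 CPM in untreated cells and 562 to 596 in DMSO, and their hosts moved less: at 24 h of DMSO the median size of the log2 change was 0.59 for 465 such members and 0.11 for their hosts. The 94 members with none of the 5 relations had 17 higher and 12 lower at 4 h of DMSO (18.1% and 12.8%, beside 15.7% and 15.7% of all genes) and 23 and 2 at 120 h (24.5% and 2.13%, beside 12.3% and 9.46%).

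CATG00000000079, 2 exons inside VSIR (the gene of an immune checkpoint receptor) at chr10:71768446-71768978, had 0, 0 and 0.0317 CPM in untreated cells and 0.316, 0.295 and 0.458 in DMSO at 12 h (30 counts against 1, ratio 27.7, 95% counting interval 4.61 to 1130; adjusted p = 2.8e-05). It was above untreated cells at all 5 DMSO times and above DMSO at all 5 ATRA times, with 2.92, 2.73 and 3.89 CPM at 120 h of ATRA (3.91 ± 0.33, adjusted p = 5.9e-15). CATG00000016630 opposite POMP, the gene of a proteasome assembly factor, had 0.0523, 0.106 and 0.190 CPM in untreated cells against 1.5, 1.00 and 0.974 in DMSO at 24 h (3.12 ± 0.40, adjusted p = 6.9e-08), and POMP changed by 0.08 ± 0.08. By 120 h of DMSO this member had 0.124, 0.287 and 0.380, which did not pass (adjusted p = 0.14). CATG00000057687 had 0, 0.0708 and 0.0634 CPM in untreated cells and was higher at all 5 DMSO times, with 1.03, 0.442 and 0.306 at 12 h (3.41 ± 0.69, adjusted p = 0.00018). It lies inside the Ensembl row of RPL11 on its own strand, though not inside that gene in GENCODE 29. All of its exon length is opposite exons of ENSG00000244609. The part of these genes in its counts was not tested.

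Lower in DMSO at all 5 times was CATG00000010532, a single exon of 287 bases at chr12:116284666-116284952, 6979 bases from MED13L. It had 4.40, 3.93 and 6.34 CPM in untreated cells and 0.910, 1.52 and 1.69 in DMSO at 120 h (-1.82 ± 0.23, adjusted p = 2.9e-08). CATG00000000618, opposite the non-coding gene OLMALINC, had 0.157, 0.531 and 0.444 CPM in untreated cells and 0.0429, 0.0733 and 0.073 in DMSO at 4 h (-2.54 ± 0.61, adjusted p = 0.00098), with OLMALINC at -1.5 ± 0.14. CATG00000115594 near DNAJB12 had 0.785, 0.531 and 0.507 in untreated cells and 0.214, 0.0972 and 0.0943 at 24 h (-2.21 ± 0.44, adjusted p = 0.00018), and ATRA was above DMSO for it at all 5 times.

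The other members named at these comparisons by size of change rest on few counts. CATG00000088839 had 11 counts in DMSO at 4 h and none in untreated cells (at least 3.71-fold, adjusted p = 0.0031), CATG00000053945 had 29 at 120 h and none (at least 9.85-fold, adjusted p = 8.4e-05), and CATG00000059956 had 40 at 72 h and 1 (ratio 43.8, 95% counting interval 7.43 to 1774; adjusted p = 2.9e-07). CATG00000072380 had 8 counts in untreated cells and none in DMSO at 4 h (at least 2.64-fold lower, adjusted p = 0.012). CATG00000010049 had 7 and none at 72 h (at least 2.13-fold lower, adjusted p = 0.026), and CATG00000082387 had 24 and 1 (21.9-fold, 95% counting interval 3.57 to 901; adjusted p = 0.00031). CATG00000037502 had 39 counts in untreated cells and 9 in DMSO at 12 h (adjusted p = 0.0026). CATG00000095864 had 24 and 6 at 24 h (adjusted p = 0.034), and CATG00000093881 had 39 and 11 at 120 h (adjusted p = 0.024). Leaving out 1 library ended the call of CATG00000053945 at 4 h, CATG00000095864 at 24 h, CATG00000010049 at 72 h, and CATG00000088839 and CATG00000093881 at 120 h.

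The most abundant members were steady between replicates, with exceptions described last. CATG00000019706, a single exon of 8983 bases at chr1:154671594-154680576, 15873 bases from the potassium channel gene KCNN3, had 24.6, 22.1 and 24.9 CPM in DMSO at 120 h and 86.1, 91.3 and 81.7 in ATRA (1.85 ± 0.09, adjusted p = 3.2e-24). CATG00000091713, 24971 bases from NFE2L3, was higher in ATRA at all 5 times, most at 12 h, with 43.2, 46.1 and 42.4 CPM against 25.8, 19.6 and 20.7 (1.00 ± 0.09, adjusted p = 5.1e-13). NFE2L3, a transcription factor gene, changed by -0.94 ± 0.10 at 12 h. CATG00000067180 at chr3:187816915-187890693 had 8.30 to 9.38 CPM in DMSO at 120 h and 46.4 to 52.0 in ATRA (2.5 ± 0.09, adjusted p = 2.1e-28).

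CATG00000086103 is MAP3K5-AS2, opposite MAP3K5, the gene of a stress-activated kinase. It had 5.32, 6.23 and 4.49 CPM in DMSO at 4 h and 11, 11.1 and 10.4 in ATRA (1.02 ± 0.11, adjusted p = 3.7e-10). At 120 h it had 6.04, 6.53 and 6.19 against 69.3, 81.6 and 63.3 (3.51 ± 0.10, adjusted p = 2.1e-32), with MAP3K5 at 0.46 ± 0.08. CATG00000063734, inside HRH1 (a histamine receptor gene) on the other strand, had 11.2, 12.5 and 12.0 against 64.1, 72.3 and 59.9 at 120 h (2.46 ± 0.11, adjusted p = 8.6e-26), and HRH1 was higher by 2.54 ± 0.13. CATG00000077735 opposite SPATA24 stayed between 16.2 and 26.1 CPM in all libraries, and its largest ATRA change was -0.39 ± 0.09 at 24 h. CATG00000083346, a single exon of 351 bases at chr6:27688184-27688534, was lower in ATRA at 4, 12 and 120 h and higher at 72 h, with 12.6, 10.2 and 12.5 CPM against 4.84, 6.20 and 7.36 (0.93 ± 0.13, adjusted p = 2.1e-08).

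The remaining abundant members stood apart by library, not by treatment. CATG00000007843, 349 bases at chr1:91387315-91387663, ran from 0.550 CPM in DMSO 4 h replicate 4 to 207 in DMSO 24 h replicate 2. CATG00000056335, at chr21:8986605-8988743, ran from 0.550 to 201 in the same libraries, and CATG00000099257 ran from 0.110 to 29.8, again in these. In untreated cells CATG00000007843 had 156, 44.1 and 9.73 CPM, CATG00000056335 had 142, 28.4 and 6.97, and CATG00000099257 had 22.1, 4.07 and 1.17. In all 3 members replicate 2 was the highest untreated library. None of the 3 was called at any ATRA or DMSO comparison. They held the 3 highest levels per kb, at 128, 53.5 and 51.9 CPM, and CATG00000083346 was the next at 29.2. The microRNA gene MIR3648-2, opposite CATG00000056335, and such short models can have near copies elsewhere in the genome, so their counts are uncertain.

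**Figure D5:**
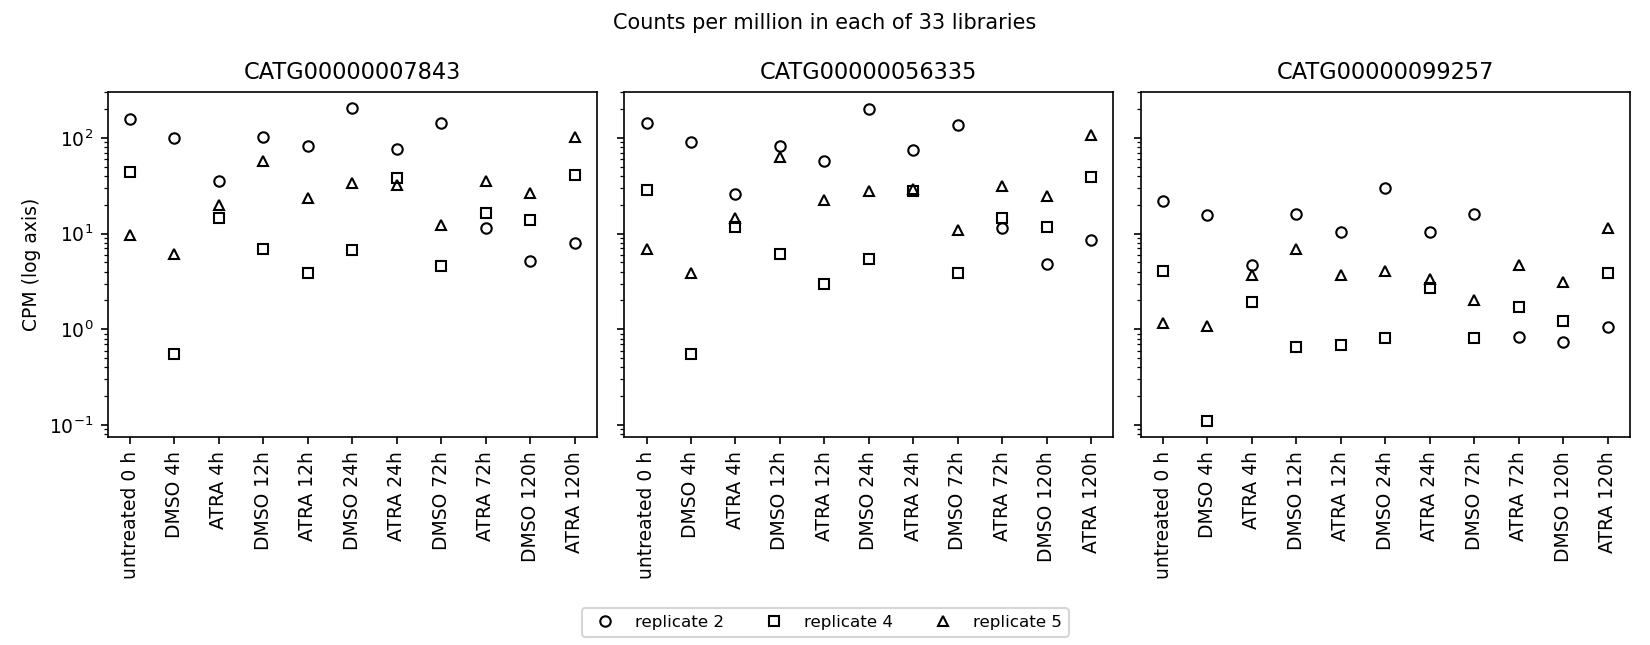
CPM (log axis) of 3 members in each of the 33 libraries, by group (x axis); symbols are replicates. In all 3 the lowest library is DMSO 4 h replicate 4 and the highest DMSO 24 h replicate 2.

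The ATRA effect itself changed between times for part of the members. From 4 to 12 h, 113 members moved (8.43%), beside 14.1% of all genes tested. Of these members 105 moved upward and 8 downward (7.84% and 0.597%, all genes 8.14% and 5.96%). From 12 to 24 h, 33 moved (2.46%, all genes 6.91%). Upward went 3 and downward 30 (0.224% and 2.24%, all genes 2.53% and 4.38%). From 24 to 72 h, 335 moved (25%, all genes 45.7%), 200 upward and 135 downward (14.9% and 10.1%, all genes 21.4% and 24.3%). From 72 to 120 h, 212 moved (15.8%, all genes 39.3%), 55 upward and 157 downward (4.1% and 11.7%, all genes 17.4% and 21.8%). At each step both shares lay below those of all genes. Of the 397 members of at least 1000 counts, 18.9% moved from 4 to 12 h and 4.79% from 12 to 24 h. From 24 to 72 h 39.5% moved, and from 72 to 120 h 26.4%. Ensembl rows of at least 330 counts had 17.4%, 8.71%, 54.9% and 47.8% over these steps. All genes tested include rows of fewer counts, so the 18.9% and the 14.1% stand at unlike minimums. Without DMSO 4 h replicate 5 the first count was 68 (5.07%), and without ATRA 12 h replicate 5 it was 74 (5.52%). DESeq2 gave 4.46% for the step from 12 to 24 h.

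At the count minimum itself, CATG00000118445, CATG00000080451 and CATG00000060129 had 330 counts and CATG00000074470 had 331, while the next rows outside had 329, 328, 327 and 325 (CATG00000035964, CATG00000044301, CATG00000091287 and CATG00000036792). A minimum of 660 counts would give 649 members, and one of 1000 counts 397. CATG00000074470, in DDX60L, an interferon-induced gene, had 1.53, 1.87 and 2.66 CPM at 72 h of ATRA against 0.0456, 0.081 and 0.0394 (5.07 ± 0.68, adjusted p = 1.2e-08), with DDX60L at 5.55 ± 0.11. The member of the longest exon length, 106763 bases, was CATG00000076837 opposite ST8SIA4, a sialyltransferase gene. It was higher at all 5 times of ATRA, with 5.91, 4.41 and 8.75 CPM at 120 h against 1.41, 1.31 and 2.56 (1.83 ± 0.21, adjusted p = 9.6e-11).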

How the data were processed

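Whole-number fragment counts per gene were deposited by the authors as 1 table of 85160 rows, made with featureCounts (Subread 1.5.1) on merged Ensembl and FANTOM CAT exons of hg38, per the file headers. Fragments were counted by strand, and a fragment that met several genes was counted in each, per the file headers. Reads were handled with Trimmomatic 0.36 and STAR 2.5.2b, per the submitters' processing notes. The labels give technical runs per library, and the table holds 1 column per library.

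The analysis started from these counts. Genes were filtered with filterByExpr, which kept 22971, and tested with edgeR 4.0.16 (R 4.3.3): TMM scaling (factors 0.827 to 1.11), 1 mean per group over 33 libraries, a robust quasi-likelihood fit and Benjamini-Hochberg adjustment over all genes tested, with a threshold of 0.05. CPM are counts per 1000000 of the TMM-scaled library total. Where a group held no count, a bound was taken against 3 counts over the group; with 1 to 3 counts an exact 95% interval is given. Intervals and bounds cover counting error only. Alternatives were DESeq2 1.42.0, limma-voom (limma 3.58.1), other scaling, filters and minimums, a replicate block, and each library left out.

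Named members are, per ATRA comparison, the 4 that rose and 4 that fell most among those called without overlap between libraries. For each DMSO comparison they are the 2 and 2, and further the 8 highest in CPM, the 4 highest per kb, the 4 highest opposite an exon, those around the minimum and the longest. The members and lists were chosen with earlier results of these data known. Positions were read against GENCODE 29, and sequences come from RefSeq windows of GRCh38.p14.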

Additional observations from a re-analysis of the deposited data

Results flagged for a closer look

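The ATRA effect differed between successive times by a test of the difference itself (edgeR) in 113 members from 4 to 12 h, 33 from 12 to 24 h, 335 from 24 to 72 h and 212 from 72 to 120 h. For each named member with a called difference, the step with the largest one is given here as a difference of log2 changes; values of members with almost no counts in a group depend on the prior count and are no bounds.

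From 4 to 12 h the effect moved by 2.13 in CATG00000095531, 2.32 in CATG00000100848, 5.62 in CATG00000007131, 3.1 in CATG00000088839, 1.3 in CATG00000067180 and 0.9 in CATG00000115509. It moved by -4.32 in CATG00000067606 and -2.4 in CATG00000055285. From 12 to 24 h it moved by -3.04 in CATG00000044399, -3.07 in CATG00000115687 and -0.63 in CATG00000091713.

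From 24 to 72 h the effect moved by 4.16 in CATG00000005247, 7.05 in CATG00000079334, 6.07 in CATG00000042543, 5.45 in CATG00000053945, 5.23 in CATG00000072380, 1.5 in CATG00000000079 and 3.28 in CATG00000095864. In the same step it moved by 5.35 in CATG00000059956, 5.54 in CATG00000082387, 0.47 in CATG00000077735, 2.29 in CATG00000086103, 2.88 in CATG00000063734 and 4.38 in CATG00000074470. It moved by 1.47 in CATG00000040225, 2.96 in CATG00000038825 and 2.64 in CATG00000029361, and by -5.0 in CATG00000026034.

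From 72 to 120 h it moved by 2.05 in CATG00000022496, 6.11 in CATG00000086126, 1.16 in CATG00000016630 and 1.26 in CATG00000019706. It moved by -4.45 in CATG00000047967, -4.96 in CATG00000005189, -5.74 in CATG00000010049, -1.35 in CATG00000083346 and -1.63 in CATG00000056798.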

How the results depend on the processing

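Of 60 results for named members, 6 lost their call under some setting and none reversed in 761 refits: CATG00000080380 at 72 h by DESeq2 (adjusted p = 0.273), CATG00000010049 at 72 h of DMSO by limma-voom (adjusted p = 0.0634) and without 1 library, and CATG00000053945, CATG00000095864, CATG00000088839 and CATG00000093881 without 1 library. The replicate numbers were not taken to pair the samples, since no label says what they share and the correlation of deviations between ATRA and DMSO libraries of equal number was as low as -0.0195 (mean over all libraries 0.0273 for equal and -0.0136 for other numbers). Still, 26 of 33 libraries were closest to their own number, a hint from the data and not the design. With the replicate block, 9.7%, 21.3%, 14.6%, 32.1% and 29% of members were higher in ATRA over the 5 times, and no call of a named member changed.

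Restricted to members outside any Ensembl span, 18.2% and 23% were higher in ATRA at 4 and 24 h and 8.11% lower at 12 h, and 6.76%, 8.78%, 3.38%, 10.8% and 1.35% were lower in DMSO over the 5 times. With a minimum of 1000 counts, 14.6%, 32% and 23.4% were higher in ATRA at 4, 12 and 24 h, and 14.6% and 9.57% lower at 4 and 24 h. In DMSO, 32.7%, 34.5% and 28.2% were then higher at 12, 24 and 120 h (all genes 11.2%, 9.92% and 12.3%). Lower at 4 and 120 h of DMSO were 6.3% and 0.252% (all genes 15.7% and 9.46%). A lower minimum, 5 counts per library, gave 2413 members, and 660 counts gave 649. DESeq2 gave 4.46% for the step from 12 to 24 h. The cause was not tested.

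Leaving out 1 library at a time, the share higher in ATRA ran from 7.68% to 9.25%, 16.3% to 19.4%, 11.6% to 12.5%, 28% to 30% and 23% to 28.9% over the 5 times, and the share lower from 4.25% to 8.95%, 2.91% to 4.03%, 5.22% to 6.71%, 13.6% to 15.4% and 18.9% to 24.2%. In DMSO the share higher ran from 16.6% to 26%, 14.2% to 19.2%, 13.7% to 17.4%, 27.4% to 29% and 9.1% to 15.1%, and lower from 2.91% to 3.95%, 2.09% to 2.83%, 1.12% to 1.72%, 4.55% to 5.67% and 0.373% to 0.746%. Changes of the ATRA effect ran from 5.07% to 9.25%, 1.94% to 2.76%, 20.9% to 23.6% and 12.9% to 18%. A median total of 641 counts over 33 libraries limits what small changes could be called.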
